A study of Saccharomyces cerevisiae with 8 samples.

Results

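The 37 genes described here encode the enzymes that attach amino acids to transfer RNAs in budding yeast, Saccharomyces cerevisiae, together with ARC1, a protein that binds tRNA and 2 of these enzymes without charging tRNA itself. They were taken by systematic name from a table of read counts for 5545 genes, and all 37 were present. The cytosolic group held 23 genes (22 synthetase genes and ARC1) and the mitochondrial group held 14. All 8 libraries came from 1 strain of mating type a carrying ura3-52 and leu2, with SPE1 (written spel in the labels) and SPE2 each replaced by LEU2. Those deletions remove ornithine decarboxylase and S-adenosylmethionine decarboxylase, so every group was a polyamine auxotroph and no group had intact SPE1 or SPE2. The cells grew at 30 °C in SD medium, a synthetic glucose medium, with 10 µM spermidine, a polyamine, or with 0 µM. Cultures were started at an optical density of 0.025 and taken at 0.6 to 0.7. Each condition gave 2 libraries of ribosome footprints, the stretches of 17 to 34 nucleotides that ribosomes shield from RNase I, and 2 libraries of fragmented total RNA. The comparison asks how translation of mRNAs differs between a supply of polyamine and its lack.

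An aminoacyl-tRNA synthetase joins 1 amino acid to the tRNAs that read its codons, using ATP. The enzymes fall into unrelated class I and class II folds. Cytosolic enzymes charge the tRNAs of the nuclear genome for the main pool of ribosomes. Mitochondrial enzymes are encoded in the nucleus, imported, and charge tRNAs that serve the few proteins made inside the organelle. In yeast some genes give rise to both forms: ALA1 and GRS1 make a mitochondrial form from upstream starts other than AUG, and HTS1, VAS1 and CRS1 also serve both compartments. Mitochondrial glutaminyl-tRNA is made in another way, by charging it with glutamate and converting that with an amidotransferase. Because of this, 14 amino acids had a mitochondrial enzyme of their own among the 37 genes and 6 had none.

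Library totals ran from 1786419 to 1925498 reads in RNA at 10 µM and from 2525135 to 2884632 in RNA at 0 µM, and from 3324344 to 4272944 reads in footprints at 10 µM and from 5038682 to 7089928 in footprints at 0 µM. Pearson r between replicates, taken over genes, was 0.984 to 0.992, although genes are not independent replicates. Some reads remained on the deleted genes, 4 to 15 per library on SPE1 and 3 to 62 on SPE2. STE2, the receptor made by a cells, had between 452 and 571 CPM (reads scaled to a common library size), against at most 12.5 CPM for STE3, the receptor of the opposite mating type. Whether the replicates were separate cultures is not stated in the labels. The p-values therefore reflect the spread between these libraries alone, and that spread may be technical. Library values given in the text are CPM scaled by edgeR's composition factors, in the order replicate 1 and replicate 2. Changes are log2 values of 10 µM over 0 µM, relative to the typical gene, and a gene was called at an edgeR quasi-likelihood adjusted p below 0.05 over 5488 tested genes. All 37 genes passed the filter on low counts.

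Per kilobase of coding length, cytosolic enzymes were among the abundant genes and mitochondrial ones were not. The median footprint level of the cytosolic genes was 330 CPM per kb at 10 µM and 372 at 0 µM. The median of the mitochondrial genes was 29.0 CPM per kb at 10 µM and 14.5 at 0 µM, beside 39.8 and 41.3 CPM per kb over all tested genes with a known length. RNA levels had the same order, with medians of 237 at 10 µM and 277 CPM per kb at 0 µM for cytosolic genes and of 29.9 at 10 µM and 18.0 at 0 µM for mitochondrial genes.

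Within the cytosolic group at 10 µM, footprint levels were highest for KRS1 (YDR037W; lysine), ARC1 (YGL105W) and GUS1 (YGL245W; glutamate), at 648 ± 54.5, 631 ± 53.0 and 629 ± 22.1 CPM per kb (SD, n = 2), 3 values that did not differ beyond their spread. At 0 µM the order had ARC1 first, at 829 ± 0.124 CPM per kb, then KRS1 at 676 ± 64.3 and GUS1 at 560 ± 2.27. The lowest cytosolic genes at 10 µM were GLN4 (YOR168W; glutamine) at 170 ± 18.6, CRS1 (YNL247W; cysteine) at 104 ± 9.53 and GRS2 (YPR081C) at 19.3 ± 3.68 CPM per kb. GRS2, a duplicate of the glycine gene GRS1, thus lay within the range of the mitochondrial genes, which reached from 14.9 CPM per kb for ISM1 (isoleucine) to 37.6 for MSW1 (tryptophan). The deleted SPE2 still had 5.58 footprint CPM per kb at 10 µM and 7.51 at 0 µM. At 0 µM the lowest mitochondrial gene, MSM1 (methionine), was at 8.64 and GRS2 at 9.51, near that level. SPE2 RNA was called lower at 10 µM (log2 change -1.46, edgeR adjusted p = 0.037). The source of the SPE2 reads was not tested.

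**Figure D1:**
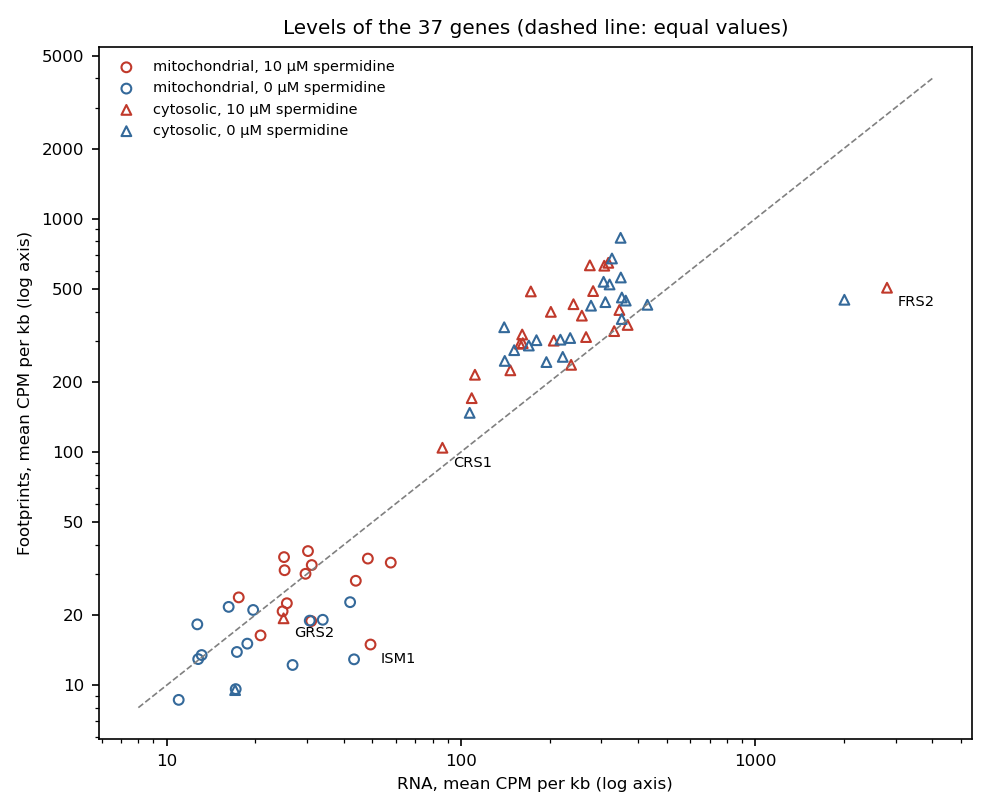
Mean footprint level against mean RNA level of each of the 37 genes, both in CPM per kb of coding length on log axes, with circles for mitochondrial and triangles for cytosolic genes (red 10 µM, blue 0 µM spermidine; each mark is the mean of 2 libraries). The mitochondrial genes and GRS2 form the low cloud, and FRS2 lies far to the right of the line of equal values.

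Mitochondrial synthetase genes had more footprints with spermidine. Of the 14, 11 were called higher and 0 lower, beside 18.7% called higher among all tested genes. Their median log2 change was 0.81 (range -0.00498 for MSK1 to 1.40 for MSF1), against -0.02 over all tested genes. In RNA, 9 of the 14 were called higher and 0 lower, beside 8.45% of all genes called higher, with a median of 0.64 against 0.00. The same 9 were called in both assays, and MSY1 (tyrosine) and NAM2 (leucine) were called in footprints alone.

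MSR1 (YHR091C) charges mitochondrial tRNA with arginine and had the smallest footprint p of the group. It had 43.9 and 42.8 footprint CPM at 10 µM, against 18.3 and 18.8 CPM at 0 µM. Both libraries with spermidine lay well above both without, and the log2 change was 1.22 ± 0.13 (SE; edgeR adjusted p = 0.00011). Its RNA was at 49.6 and 49.3 CPM at 10 µM, against 32.1 and 34.2 CPM at 0 µM (log2 change 0.58, edgeR adjusted p = 0.015).

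AIM10 (YER087W), annotated as the mitochondrial proline enzyme, had 52.3 and 60.9 footprint CPM at 10 µM, against 27.2 and 24.9 CPM at 0 µM (log2 change 1.13 ± 0.13, edgeR adjusted p = 0.00024). Its RNA stood at 50.7 and 56.9 CPM at 10 µM, against 32.9 and 32.1 CPM at 0 µM (log2 change 0.73 ± 0.15, edgeR adjusted p = 0.0076). Neither assay showed an overlap between conditions.

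SLM5 (YCR024C), the asparagine enzyme, had nearly equal log2 changes in both assays. It had 45.4 and 43.3 footprint CPM at 10 µM, against 21.2 and 17.1 CPM at 0 µM (log2 change 1.22 ± 0.17, edgeR adjusted p = 0.00056). In RNA it had 49.1 and 38.5 CPM at 10 µM, against 20.7 and 17.1 CPM at 0 µM (log2 change 1.22 ± 0.20, edgeR adjusted p = 0.0024). This was the largest RNA rise among the 37 genes.

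MSF1 (YPR047W), a single-chain phenylalanine enzyme, had the largest footprint rise of the 37 genes. It had 48.9 and 50.9 CPM at 10 µM, against 20.1 and 17.8 CPM at 0 µM (log2 change 1.40 ± 0.19, edgeR adjusted p = 0.00056). Its RNA replicates at 10 µM were far apart, at 43.9 and 26.7 CPM, though both exceeded the 17.2 and 19.8 CPM at 0 µM (log2 change 0.92 ± 0.24, edgeR adjusted p = 0.021). The RNA call was lost without RNA replicate 1 at 10 µM and without RNA replicate 1 at 0 µM.

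MSM1 (YGR171C), the methionine enzyme, and MST1 (YKL194C), the threonine enzyme, completed the 4 mitochondrial genes with the smallest RNA p. MSM1 RNA stood at 37.1 and 34.9 CPM at 10 µM, against 18.8 and 19.1 CPM at 0 µM (log2 change 0.92 ± 0.16, edgeR adjusted p = 0.0031). MST1 RNA stood at 70.5 and 89.8 CPM at 10 µM, against 44.6 and 49.5 CPM at 0 µM (log2 change 0.77 ± 0.15, edgeR adjusted p = 0.0054). For both genes the conditions did not overlap, and the footprint changes were of like size, 0.92 for MSM1 and 0.81 for MST1.

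The other called genes of the group were MSE1 (glutamate), whose footprints were 2.30-fold higher at 10 µM, and, as log2 footprint changes, MSW1 with 0.80, MSY1 with 0.61, MSD1 (aspartate) with 0.57 and NAM2 with 0.56. NAM2 is also known for its part in splicing mitochondrial introns. Of these, MSW1, MSE1 and MSD1 were called in RNA too, at 0.90, 0.71 and 0.52. The 3 genes called in neither assay were DIA4 (serine), at 0.38 in footprints and 0.46 in RNA, ISM1, at 0.21 and 0.19, and MSK1 (YNL073W; lysine). MSK1 had 32.6 and 32.5 footprint CPM at 10 µM, against 33.2 and 32.2 CPM at 0 µM, so its 4 values lay within a narrow band while most genes of its group were higher with spermidine.

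The footprint calls of 8 mitochondrial genes (MSR1, AIM10, SLM5, MSF1, MSE1, MSM1, MST1 and MSW1) were kept in each of the 17 alternative settings (8 omissions of a library and 9 others) in which the gene was tested, and the RNA calls of MSM1 and SLM5 were. The footprint calls of MSY1 and MSD1 were lost without replicate 1 of either condition, and that of NAM2 when replicate 2 with or replicate 1 without spermidine was left out. DESeq2 also lost the MSD1 call in footprints and the MSD1 and MSR1 calls in RNA. The RNA calls of AIM10, MST1 and MSW1 were lost without RNA replicate 2 at 10 µM. Leaving out RNA replicate 1 of either condition removed those of MSE1, MSR1, MSF1 and MSD1. The RNA call of MSR1 was also lost without replicate 2 with spermidine, and that of MSD1 without any 1 of 6 libraries. Over all tested genes, too, fewer were called in RNA whichever library was left out.

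**Figure D2:**
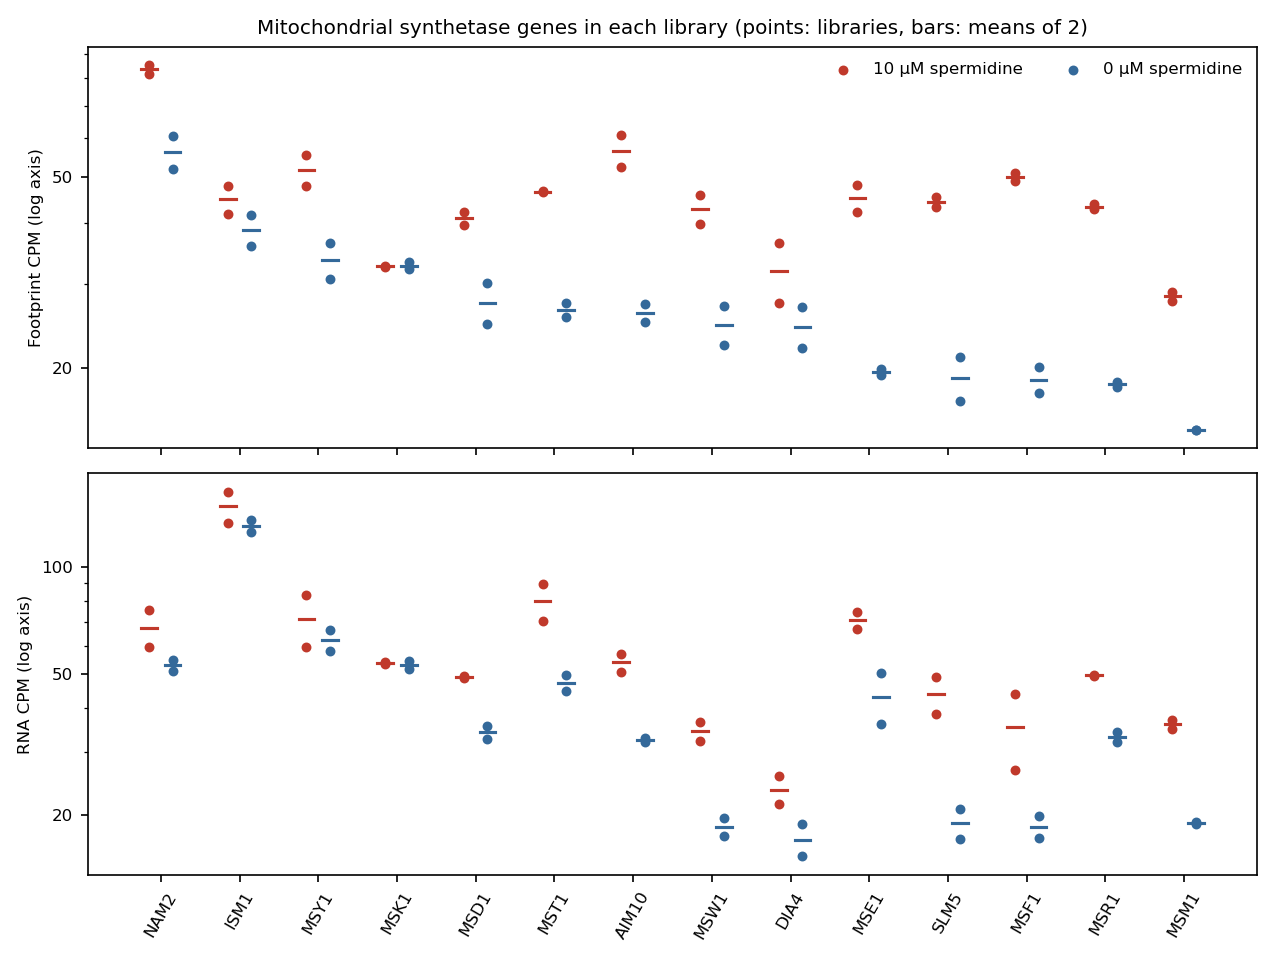
CPM of the mitochondrial genes in each library on a log axis, with the 10 µM libraries (red) left of the 0 µM libraries (blue). Footprint values of 13 of the 14 genes did not overlap between conditions and were higher at 10 µM, and those of MSK1 overlapped. Over all tested genes, 72.6% had no overlap in footprints, in either direction.

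Among the 23 cytosolic genes, fewer rose than fell. In footprints, 3 were called higher (18.7% of all genes were) and 10 lower, beside 19.8% of all genes called lower, and the median log2 change was -0.13. In RNA, 1 was called higher (8.45% of all genes were) and 7 lower, beside 13.5% of all genes called lower, and the median was -0.19. The 7 genes lower in RNA were also lower in footprints: GLN4, MES1, FRS1, WRS1, DED81, YHR020W and ARC1. The falls were small, and the largest fall in footprints was to 0.693 of the 0 µM level, in GLN4.

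The number of cytosolic genes called lower in footprints depended on single libraries, and it fell when any 1 footprint library was left out. Footprint calls over all tested genes also became fewer in these omissions. The cytosolic median log2 footprint change was -0.17 without footprint replicate 1 at 0 µM and -0.08 without replicate 2. It was -0.13 without footprint replicate 1 at 10 µM and -0.22 without replicate 2. GLN4 and GRS2 kept their footprint calls in all 17 settings, and MES1 and YHR020W kept their RNA calls. The footprint calls of THS1, MES1 and YHR020W disappeared when footprint replicate 1 with spermidine or replicate 2 without it was left out, and that of DPS1 without footprint replicate 2 at 10 µM. Those of CRS1 and ARC1 disappeared when replicate 1 with spermidine or 1 of the footprint libraries without it was left out. Those of DED81 and WRS1 were lost without any 1 of the footprint libraries and by DESeq2. The TYS1 call was lost without any 1 of those or of the RNA libraries with spermidine, and in 3 other settings. The FRS1 call was lost in all 8 omissions and in 4 other settings. In RNA, fewer cytosolic genes were called lower whichever library was left out, and fewer of all tested genes were called as well.

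GLN4 charges tRNA with glutamine. It had 381 and 445 footprint CPM at 10 µM, against 586 and 608 CPM at 0 µM (log2 change -0.53 ± 0.10, edgeR adjusted p = 0.0035). Its RNA was called lower too, with a log2 change of -0.37 (edgeR adjusted p = 0.035), a call lost in 4 other settings and 6 omissions. Neither assay's conditions overlapped.

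THS1 (YIL078W), the threonine enzyme, was called in footprints and not in RNA. Its footprints were at 685 and 769 CPM at 10 µM, against 989 and 1038 CPM at 0 µM (log2 change -0.48 ± 0.11, edgeR adjusted p = 0.0072). Its RNA was at 684 and 778 CPM at 10 µM and 733 and 820 CPM at 0 µM, with overlapping conditions (log2 change -0.09, edgeR adjusted p = 0.63). The difference between both changes, -0.39, was not called (edgeR adjusted p = 0.22).

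DPS1 (YLL018C), the aspartate enzyme, went the other way. It had 790 and 844 footprint CPM at 10 µM, against 572 and 575 CPM at 0 µM (log2 change 0.51 ± 0.11, edgeR adjusted p = 0.0044). Its RNA change of 0.30 was not called (edgeR adjusted p = 0.081). DPS1 also had the most footprints per RNA read of the 37 genes, with a ratio of CPM of 2.83 at 10 µM and 2.44 at 0 µM.

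The proline gene YHR020W had the largest RNA fall of the group. Its RNA was at 308 and 359 CPM at 10 µM, against 593 and 550 CPM at 0 µM (log2 change -0.78 ± 0.11, edgeR adjusted p = 0.0012). Its footprint change was -0.41. The gene lies on chromosome VIII from 143996 to 146062 (R64 coordinates of RefSeq), beside the asparagine gene DED81 (YHR019C) from 141894 to 143558. The 437 bases between them separate genes whose systematic names put them on opposite strands. DED81 RNA was called lower too, with a log2 change of -0.34 that lost its call in 4 other settings and 6 omissions, and the ratio of YHR020W to DED81 RNA per kb was 0.610 and 0.730 at 10 µM, against 0.904 and 0.909 at 0 µM.

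The rest of the cytosolic falls in footprints were CRS1 (-0.50), ARC1 (-0.39), WRS1 for tryptophan (-0.35), DED81 (-0.32), TYS1 for tyrosine (-0.29) and FRS1 (-0.26), with MES1 described beside its complex. Besides ALA1, HTS1, VAS1 and GUS1, whose values are given with the dual genes and the complex, the cytosolic genes called in neither assay were ILS1 for isoleucine, CDC60 for leucine, SES1 for serine, KRS1 and YDR341C for arginine, with log2 footprint changes of -0.19, -0.13, -0.09, -0.06 and -0.04 and log2 RNA changes of -0.27, -0.07, -0.19, -0.04 and -0.15. By fold class, 5 of the 10 cytosolic class I genes were called lower in footprints and 0 higher, and 4 of the 12 class II genes were called lower and 3 higher, beside 19.8% lower and 18.7% higher over all genes. In the mitochondrial group the calls covered both classes, 6 of 7 class I and 5 of 7 class II genes. No difference between classes was tested.

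**Figure D3:**
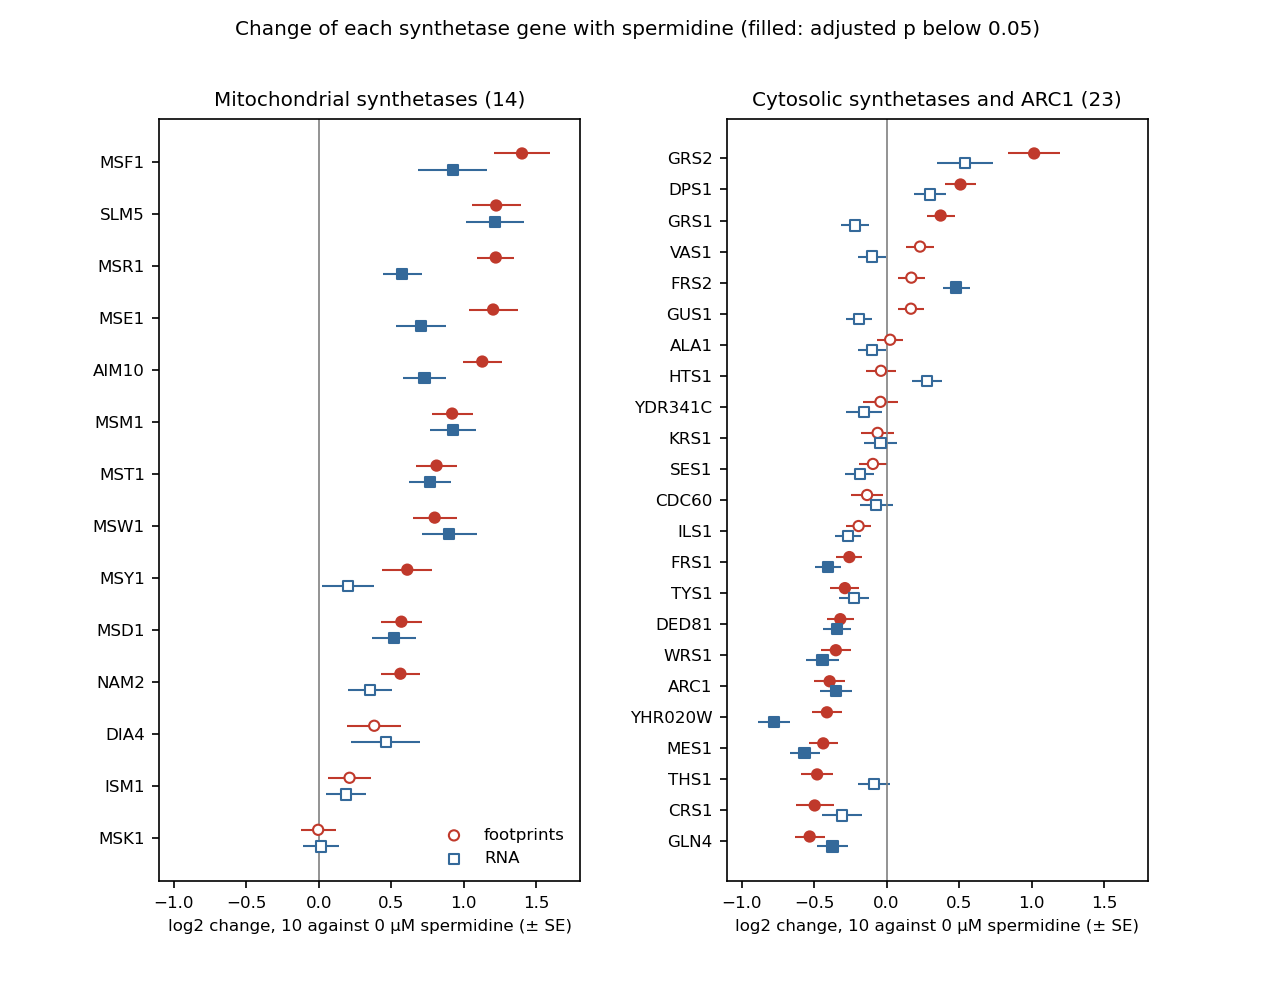
Log2 change (10 µM over 0 µM) of each of the 37 genes in footprints and in RNA, with standard errors, filled where the adjusted p of edgeR was below 0.05. The mitochondrial genes lie to the right of zero, MSK1 excepted, and most cytosolic genes lie to the left.

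GRS1 and GRS2 are a duplicated pair for glycine. GRS1 (YBR121C) carries the main activity and also supplies mitochondria, while GRS2 is the minor copy. GRS2 had 40.7 and 31.1 footprint CPM at 10 µM, against 18.5 and 16.8 CPM at 0 µM (log2 change 1.02 ± 0.18, edgeR adjusted p = 0.0021). This was the largest footprint change in the cytosolic group, at a level near that of the mitochondrial genes. GRS1 had 749 and 850 footprint CPM at 10 µM, against 608 and 626 CPM at 0 µM (log2 change 0.37 ± 0.10, edgeR adjusted p = 0.013). The GRS1 call disappeared when replicate 2 with spermidine or 1 of the footprint libraries without it was left out.

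In RNA the copies had changes of opposite sign. GRS2 had 42.8 and 49.8 RNA CPM at 10 µM and 28.2 and 35.2 CPM at 0 µM, and GRS1 had 407 and 402 RNA CPM at 10 µM and 466 and 477 CPM at 0 µM. Neither RNA change was called: the log2 change was 0.54 for GRS2 (edgeR adjusted p = 0.072) and -0.22 for GRS1 (edgeR adjusted p = 0.15). Per kb, GRS1 exceeded GRS2 in RNA 8.81- and 7.49-fold at 10 µM, against 15.3- and 12.55-fold at 0 µM. The treatment of reads that match both copies is not given in the sources used, so reads may be split between them.

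GUS1, MES1 and ARC1 form 1 complex in the cytosol, in which ARC1 helps the glutamate and methionine enzymes to bind tRNA. Of the 3 genes, 2 were called lower in footprints, beside 19.8% of all genes. Both calls depended on single libraries, as described above for MES1 and ARC1. GUS1 had 1305 and 1372 footprint CPM at 10 µM, against 1195 and 1188 CPM at 0 µM, and was not called (log2 change 0.17, edgeR adjusted p = 0.16). MES1 (YGR264C) had 477 and 534 footprint CPM at 10 µM, against 674 and 693 CPM at 0 µM, and was called lower (log2 change -0.44 ± 0.10, edgeR adjusted p = 0.0077). ARC1 had 672 and 757 footprint CPM at 10 µM, against 938 and 937 CPM at 0 µM, and was called lower (log2 change -0.39 ± 0.11, edgeR adjusted p = 0.015).

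The ratio of GUS1 to ARC1 footprints per kb was 1.03 and 0.964 at 10 µM, against 0.678 and 0.674 at 0 µM, while the ratio of MES1 to ARC1 was 0.356 and 0.354 at 10 µM, against 0.361 and 0.371 at 0 µM. The ratio of GUS1 to ARC1 was higher in both 10 µM libraries, and the ratio of MES1 to ARC1 was slightly lower in both. These ratios were not tested. In RNA, MES1 had 339 and 325 CPM at 10 µM, against 515 and 467 CPM at 0 µM (log2 change -0.57 ± 0.10, edgeR adjusted p = 0.0041). GUS1 RNA stood at 630 and 675 CPM at 10 µM, against 759 and 727 CPM at 0 µM, and ARC1 RNA at 311 and 309 CPM at 10 µM, against 424 and 365 CPM at 0 µM. The log2 changes were -0.19 for GUS1, which was not called, and -0.35 for ARC1, which was called and lost its call in 6 settings and without any 1 of 7 libraries.

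FRS1 (YLR060W) and FRS2 (YFL022C) encode the beta and alpha subunits of the cytosolic phenylalanine enzyme, which is built from equal numbers of both. FRS2 RNA stood at 4061 and 4424 CPM at 10 µM, against 2926 and 3152 CPM at 0 µM (log2 change 0.48 ± 0.09, edgeR adjusted p = 0.0060). FRS1 RNA stood at 483 and 469 CPM at 10 µM, against 643 and 616 CPM at 0 µM (log2 change -0.40 ± 0.09, edgeR adjusted p = 0.012). FRS2 was the only cytosolic gene called higher in RNA, and its call was lost without RNA replicate 2 at 10 µM, as was the RNA call of FRS1. The FRS1 call was also lost with each assay fitted alone.

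The subunits' footprints were much closer to each other. FRS2 had 800 and 731 footprint CPM at 10 µM, against 687 and 672 CPM at 0 µM (log2 change 0.17, edgeR adjusted p = 0.18). FRS1 had 551 and 562 footprint CPM at 10 µM, against 686 and 643 CPM at 0 µM (log2 change -0.26 ± 0.09, edgeR adjusted p = 0.047). Per kb, FRS2 exceeded FRS1 in footprints 1.72- and 1.54-fold at 10 µM, against 1.19- and 1.24-fold at 0 µM, and in RNA 9.95- and 11.2-fold at 10 µM, against 5.38- and 6.06-fold at 0 µM.

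FRS2 had the fewest footprints per RNA read of the 37 genes. The ratio of CPM was 0.180 at 10 µM and 0.224 at 0 µM, and 6.91% of tested genes had a lower ratio at 10 µM and 7.74% at 0 µM. FRS2 RNA made up 29.6% and 31.0% of the RNA reads on cytosolic genes of the group at 10 µM, against 20.7% and 21.9% at 0 µM. No annotated gene overlapped FRS2, and BUD27, its closest annotated neighbour, lay 122 bases away. Neither the strand of the RNA reads nor the part of each gene counted is given in the sources used.

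**Figure D4:**
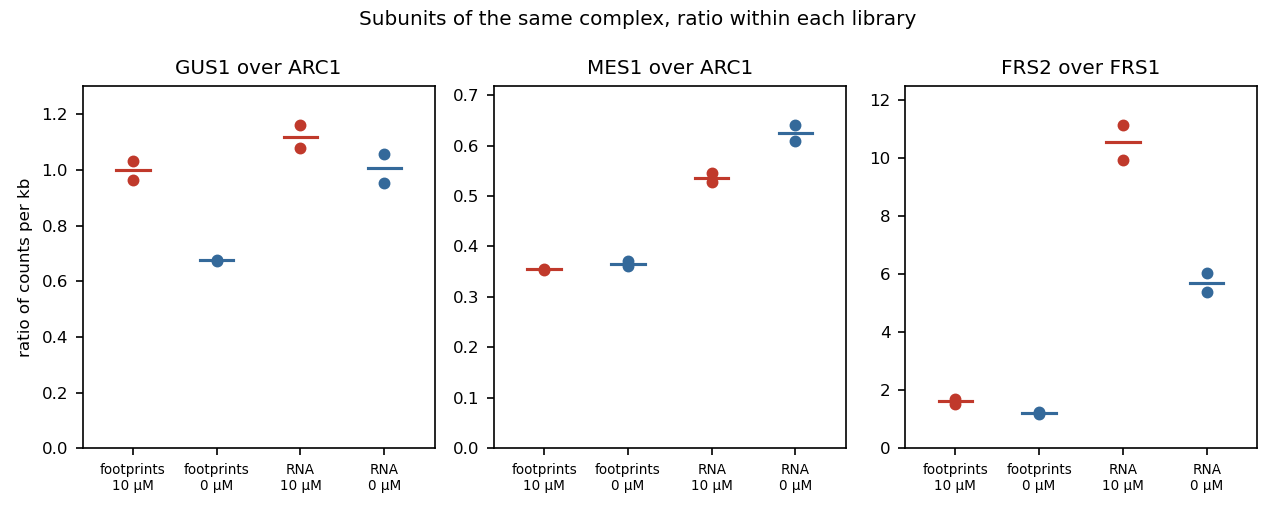
Ratios of CPM per kb within each library for GUS1 over ARC1, MES1 over ARC1 and FRS2 over FRS1, on linear axes from 0 with 10 µM (red) left of 0 µM (blue); points are libraries and bars are means of 2. FRS2 over FRS1 is near 10 in RNA and below 2 in footprints at 10 µM.

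In footprints, 1 of the 5 genes treated here as serving both compartments was called higher and 1 lower, which lies near the 18.7% and 19.8% over all genes. Of ALA1 (YOR335C), GRS1, HTS1 (YPR033C), VAS1 (YGR094W) and CRS1, GRS1 was called higher and CRS1 lower in footprints. In RNA 0 of the 5 were called, beside 21.9% of all genes called in either direction. ALA1 had 806 and 868 footprint CPM at 10 µM, against 804 and 842 CPM at 0 µM (log2 change 0.03). HTS1 had 378 and 398 footprint CPM at 10 µM, against 408 and 389 CPM at 0 µM (log2 change -0.04). Both genes overlapped between conditions.

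VAS1, the valine enzyme, had 969 and 1021 footprint CPM at 10 µM, against 814 and 881 CPM at 0 µM, a change of 0.23 that was not called (edgeR adjusted p = 0.084). It was called higher in 3 other settings: each assay fitted alone, genes with a mean count of at least 100, and the length trend removed. CRS1 had 225 and 256 footprint CPM at 10 µM, against 345 and 333 CPM at 0 µM (log2 change -0.50 ± 0.13, edgeR adjusted p = 0.014). In RNA, the values at 10 µM were 443 and 469 CPM for ALA1, 416 and 361 for HTS1, 711 and 659 for VAS1 and 218 and 181 for CRS1, against 481 and 498, 318 and 322, 763 and 707, and 270 and 223 CPM at 0 µM. Counts per gene do not tell reads of the cytosolic form from reads of the mitochondrial form.

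Set against each other within a library, cytosolic and mitochondrial enzymes for the same amino acid were closer with spermidine. The ratio of their CPM per kb does not depend on how libraries are scaled, and for phenylalanine it uses the mean of FRS1 and FRS2. In footprints the median ratio over 14 amino acids was 13.4 at 10 µM (range 5.75 to 34.4) and 29.8 at 0 µM (range 12.7 to 46.0). The ratio was lower in both 10 µM libraries than in both 0 µM libraries for 12 amino acids. Aspartate and lysine overlapped.

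In RNA the median ratio was 7.05 at 10 µM (range 3.70 to 65.9) and 12.1 at 0 µM (range 7.16 to 90.2), and 13 of 14 amino acids were lower without overlap, lysine being the exception. Both upper ends were phenylalanine, whose ratio includes FRS2, and the next highest was serine, at 16.1 and 25.6. Phenylalanine was lower by a narrow margin, at 47.5 and 84.3 at 10 µM against 94.0 and 86.4 at 0 µM. In scaled CPM, 72.6% of all tested genes in footprints and 60.2% in RNA had no overlap between conditions, in either direction. Non-overlap of gene levels in 2 against 2 libraries is thus common. These shares count gene levels in either direction, so they are no direct background for ratios that were lower at 10 µM. An exact permutation test of 2 against 2 libraries cannot give a two-sided p below 0.333, and none was computed.

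Asparagine and proline had the largest differences in footprints. DED81 exceeded SLM5 13.5- and 15.3-fold at 10 µM, against 38.0- and 45.9-fold at 0 µM. YHR020W exceeded AIM10 10.3- and 9.29-fold at 10 µM, against 25.9- and 30.7-fold at 0 µM. For lysine, KRS1 exceeded MSK1 32.4- and 36.5-fold at 10 µM, against 32.8- and 38.8-fold at 0 µM, with neither gene called in either assay.

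**Figure D5:**
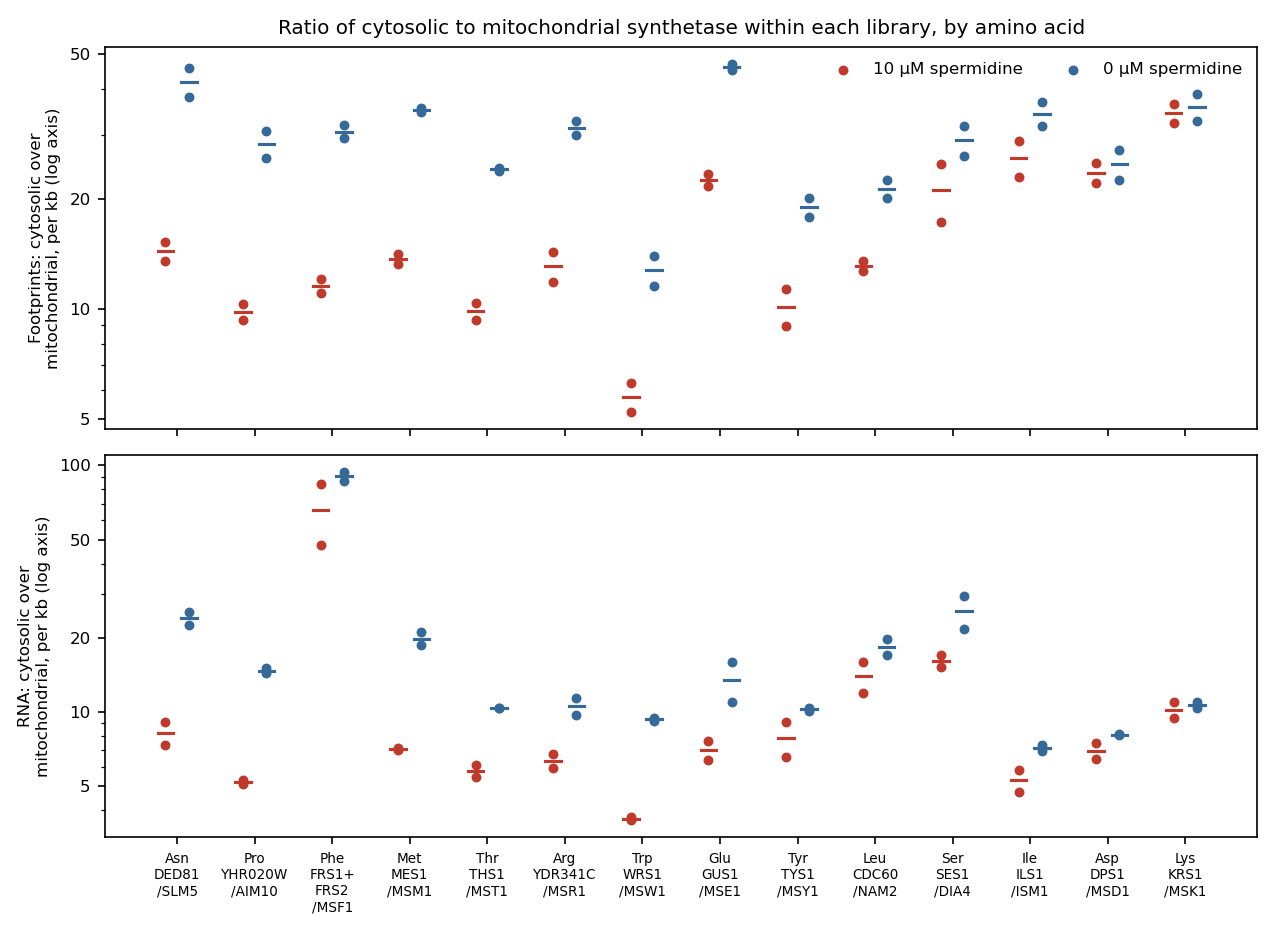
Ratio of the cytosolic to the mitochondrial enzyme's CPM per kb for 14 amino acids within each library on a log axis, in footprints and RNA (red 10 µM, blue 0 µM; each mark is 1 library). The 10 µM marks lie below the 0 µM marks for 12 amino acids in footprints and 13 in RNA.

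As a share of all reads, the mitochondrial genes took 0.0623% and 0.0608% of footprints at 10 µM, against 0.0377% and 0.0377% at 0 µM, and 0.0840% and 0.0860% of RNA at 10 µM, against 0.0568% and 0.0608% at 0 µM. The cytosolic genes took 1.496% and 1.596% of footprints at 10 µM, against 1.69% and 1.75% at 0 µM. Their share of RNA was 1.47% and 1.45% at 10 µM and 1.43% and 1.46% at 0 µM, and without FRS2 it was 1.04% and 0.998% at 10 µM and 1.14% and 1.14% at 0 µM. The widest 95% Wilson interval reached 0.0177 percentage points to either side for cytosolic and 0.00425 for mitochondrial shares, and it covers counting error only.

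Translational efficiency, the footprint change minus the RNA change, was called for 0 of the 37 genes, beside 1.79% of all tested genes (0.893% higher and 0.893% lower). Without adjustment 7 of the 37 genes had an edgeR p below 0.05, as did 1014 of all 5488, which is nearly the same share. DESeq2 and limma voom also called 0, and the median was 0.07 against 0.05 over all genes. GRS1 came closest: its ratio of footprint to RNA CPM was 1.84 and 2.11 at 10 µM, against 1.31 and 1.31 at 0 µM, pairing libraries by replicate number (log2 change 0.59 ± 0.14, edgeR adjusted p = 0.064). With the replicate number as a block its adjusted p was 0.039, and with the trend on gene length removed it was 0.049.

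MSR1 had the largest efficiency change of the 37 genes, 0.64 ± 0.19, with ratios of 0.884 and 0.869 at 10 µM, against 0.572 and 0.550 at 0 µM (edgeR adjusted p = 0.11). The level of the ratio differed by compartment: its median was 1.56 at 10 µM and 1.42 at 0 µM for cytosolic genes and 0.857 at 10 µM and 0.795 at 0 µM for mitochondrial genes, beside 1.04 at 10 µM and 1.01 at 0 µM over all genes. ISM1 had the lowest ratio of the mitochondrial genes, 0.303 at 10 µM and 0.298 at 0 µM. Across the 37 genes, footprint and RNA changes correlated with Pearson r of 0.90 and Spearman rho of 0.90, against 0.62 and 0.61 over 5488 genes. Within the compartments the values were lower, with r of 0.75 and rho of 0.72 over the 23 cytosolic genes and r of 0.81 and rho of 0.82 over the 14 mitochondrial genes. These describe genes that share the same libraries, and no p is given.

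A list of 23 partner genes that mature, carry, proofread or sense tRNA had 6 members called higher and 6 lower in footprints, 26.1% each beside 18.7% and 19.8% of all genes. In RNA, 1 was called higher (4.35%, beside 8.45%) and 5 lower (21.7%, beside 13.5%). The counts of the list are thus near those of all genes. The amidotransferase of mitochondrial glutaminyl-tRNA consists of HER2, PET112 and GTF1. HER2 (log2 change 0.61) and PET112 (0.40) rose in footprints, while GTF1 rose in RNA (0.50) and stood at -0.18 in footprints, which was not called. The PET112 call (edgeR adjusted p = 0.048) was lost in 3 other settings and in 6 of the 8 omissions of a library. The calls of HER2 and of GTF1 were each lost in 1 omission, that of replicate 2 with spermidine in the assay concerned.

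Of 8 genes that prepare or export tRNA, 3 were called lower in footprints and 0 higher, beside 19.8% and 18.7% of all genes. These were LOS1, an exporter (-0.62), UTP8 (-0.49) and CCA1, which adds the 3′ end (-0.34). The other 5 were not called: THG1 (-0.25), MTR10 (-0.17), MSN5 (-0.15), TRL1 (0.07) and CEX1 (0.29). LOS1 and UTP8 were also called lower in RNA, at -0.35 and -0.46 (edgeR adjusted p = 0.046 and 0.045), but the LOS1 call was lost in 5 other settings and 7 omissions and the UTP8 call in 6 and 6. The CCA1 footprint call (edgeR adjusted p = 0.046) was lost in 3 other settings and 6 omissions, and the UTP8 footprint call in 2 omissions, while that of LOS1 was kept throughout. PTH2, a peptidyl-tRNA hydrolase, fell in footprints (-0.45). The phosphorylases APA1 (0.50) and APA2 (1.01), which break down diadenosine tetraphosphate, a by-product of synthetases, rose in footprints, and neither was called in RNA. Of these footprint calls, APA2 kept its call throughout, APA1 lost it in 3 omissions, and PTH2 in 3 omissions and by DESeq2.

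The sensor of uncharged tRNA is the kinase GCN2, with the helpers GCN1 and GCN20 and the inhibitor YIH1. GCN2 was not called in footprints (-0.01) or in RNA (-0.33). GCN1 fell by 0.72 in footprints and 0.64 in RNA on the log2 scale, GCN20 fell by 0.77 and 0.84, and YIH1 rose by 0.58 in footprints. The GCN1 and GCN20 calls were kept in all 17 settings, and the YIH1 call was lost in 3 omissions and by DESeq2. GCN4, the activator whose translation depends on that kinase, had 126 and 137 footprint CPM at 10 µM, against 61.0 and 61.5 CPM at 0 µM, and 510 and 497 RNA CPM at 10 µM, against 1078 and 1054 CPM at 0 µM. Its efficiency change of 2.18 was the only one called in the list of 23 (edgeR adjusted p = 7.5e-05).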

How the data were processed

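The authors deposited unscaled read counts, 1 whole number per gene and library, for 8 libraries. The builds R64 and sacCer3 are listed in the submitters' processing notes without role or order, as are Bowtie 1.1.2 and 1.2.2, cutadapt and edgeR. Not given in the sources used here are the counted region, the treatment of reads matching several genes and the use of strand. The smallest count was 1, so genes with a 0 appear to be left out of the table; 3 lines named no gene. RefSeq's R64 gene table gave symbols, coordinates and lengths for 5543 of 5545 genes. Sequences of the genes and proteins were not used here.

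In R 4.3.3, edgeR 4.0.16 (filterByExpr, minimum count 10, minimum total 15) kept 5488 genes. One quasi-likelihood model with a coefficient per group, composition factors by the trimmed mean of M values and no replicate block was fitted to all 8 libraries, with 4 residual degrees of freedom. Footprints, RNA and their difference were tested at 10 against 0 µM, with Benjamini-Hochberg adjustment over all tested genes. Standard errors are the log2 change over the root of F. The code was first run on simulated counts with the same spread for every gene, which does not show how the fit performs on these libraries. Alternatives were DESeq2 1.42.0, limma 3.58.1 voom, other scalings and filters, a replicate block, a length correction and leaving out each library. The 37 genes, the 23 partners and the tests were chosen with earlier results of these data known. Library values are printed for up to 4 called genes with the smallest p per compartment and assay and for fixed pairs, complexes and dual genes; MSK1, the extremes of level and ratio and the amino acids singled out were chosen after their values were seen.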

Additional observations from a re-analysis of the deposited data

How the results depend on the processing

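The labels do not state that replicate numbers pair libraries, and deviations of same-numbered libraries correlated between groups at 0.037 to 0.24. With the replicate block, 3 cytosolic genes were called higher and 10 lower in footprints, 11 mitochondrial genes were called higher, 8 cytosolic genes were called lower and 9 mitochondrial genes higher in RNA, and 1 gene (GRS1) was called in efficiency. With the length trend removed, 1 gene (GRS1) was also called in efficiency, and the cytosolic footprint median was -0.04. Cytosolic genes called lower in footprints numbered 6 by DESeq2. Those called lower in RNA numbered 4 with DESeq2-style size factors, 4 with library totals, 2 with each assay fitted alone and 3 by DESeq2, and those called higher in RNA numbered 2 with library totals and 3 among genes with a mean count of at least 100. Whichever single library was left out, fewer cytosolic genes were called lower in both assays. No omission gave more mitochondrial genes called higher in either assay. Over all tested genes, calls in an assay also became fewer without 1 of its own libraries. Over these omissions the median log2 footprint change ran from -0.22 to -0.08 for cytosolic and from 0.76 to 0.84 for mitochondrial genes. The cytosolic share of RNA at 10 over 0 µM was 1.01, and 0.893 without FRS2, an alternative chosen after seeing the data. TRL1, a tRNA ligase, had a footprint change of 0.07 with all libraries and of -0.81 (edgeR adjusted p = 0.022) without footprint replicate 2 at 10 µM, and its values over the omissions ran from -0.81 to 0.58. The cause of these shifts was not tested. In the 8 fits without 1 library and in the 9 other settings, median changes of the mitochondrial genes stayed above zero in footprints and RNA and those of the cytosolic genes below.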
